A study of Mus musculus with 12 samples.

Results

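The genes described here are 9 subunits and feedback inhibitors of the transcription factor NF-kB, taken by gene name from the array files: the inhibitor genes Nfkbia, Nfkbiz, Bcl3 and Tnfaip3 and the subunit genes Nfkb1, Nfkb2, Rel, Rela and Relb. They were read by 19 of the 56605 probes on the array, and the probes in all carried 37008 gene symbols. Of the 19 probes, 17 were well above background on all 12 arrays and 2 on 0 arrays (A_55_P2714757 for Nfkbiz and A_55_P2930892 for Bcl3), and these 2 were left out.

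NF-kB proteins are dimers that wait in the cytoplasm bound to IkB proteins. When toll-like receptors, cytokine receptors or CARD scaffold proteins activate the IkB kinase, IkB-alpha is destroyed, the dimer enters the nucleus, and among the first genes it turns on are those of its own brakes, so that mRNA of IkB-alpha and A20 is a common readout of recent NF-kB activity. In skin the atypical inhibitor IkB-zeta also acts as a co-activator of keratinocyte defence and psoriasis genes.

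Ear skin RNA of C57BL/6J mice was measured in 5 genotypes: wild type (WT), Tlr7-/-, Tlr9-/-, Tlr7-/-Tlr9-/- (double knockout) and Card14-/-. Imiquimod is a ligand of TLR7, and CARD14 is a keratinocyte scaffold protein that signals to NF-kB. The ears were either left without cream or taken 4 h after 62.5 mg of Beselna cream with 5% imiquimod. Each genotype had 1 untreated array, and after imiquimod WT, Tlr7-/- and Tlr9-/- had 1 array each while the double knockout and Card14-/- had 2 each. Each RNA was a pool of 6 to 8 mice. The labels do not say whether repeat arrays share a pool, so p-values that rest on them measure the spread between arrays, which may be technical. No group received cream without imiquimod, so imiquimod, cream base, handling and time cannot be told apart. The labels give neither the age and sex of the mice nor the design of the knockout alleles.

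Slide 1 carried the 5 untreated arrays and, after imiquimod, those of the 3 genotypes with a single array, and slide 2 the 4 imiquimod arrays of the double knockout and Card14-/-. Between 60.1% and 65.7% of spots were well above background, with 0 saturated. Before normalization the signal at the 75th percentile was 527 to 779 with imiquimod and 1070 to 1236 without. The size of this drop differed by genotype: from 1234 to 527 in WT, and from 1070 to 779 and 731 in Card14-/-. Its source was not tested. Normalization takes such a shift out, so rises and falls below are relative to the rest of each array. The Tlr7 probe read 4.03 to 5.85 on the log2 scale in arrays lacking Tlr7 and 7.36 to 8.12 in the others, and the Card14 probe read 9.63 to 9.89 in Card14-/- arrays and 10.82 to 11.65 in the others. The Tlr9 probe read 10.95 to 11.33 in arrays lacking Tlr9 and 11.05 to 11.39 in the others, which overlap. Whether these probes lie in the deleted parts is not stated, so the Tlr9 probe checks nothing. In RNA of a whole tissue, fewer cells of a type and less RNA per cell cannot be told apart.

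The stretch before the transcription start is shown for 5 of the genes because genes of NF-kB inhibitors and subunits are known to be read by NF-kB itself. Of these 5 genes, Nfkbia, Tnfaip3, Nfkb2 and Rela rose together below and Rel on its brightest probe did not. The sequences are from RefSeq (GRCm38.p6), 5′ to 3′ along the gene, and cover the 130 bases before the start. Capitals mark matches to the 10-base NF-kB consensus on either strand, merged where matches overlap.
Nfkbia, chr12:55492648-55492777, minus strand: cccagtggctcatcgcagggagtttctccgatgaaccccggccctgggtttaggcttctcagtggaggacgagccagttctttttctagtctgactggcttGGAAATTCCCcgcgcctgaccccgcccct
Tnfaip3, chr10:19015411-19015540, minus strand: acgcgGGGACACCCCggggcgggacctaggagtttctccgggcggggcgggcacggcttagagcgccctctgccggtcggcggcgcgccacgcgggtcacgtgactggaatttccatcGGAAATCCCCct
Nfkb2, chr19:46304607-46304736, plus strand: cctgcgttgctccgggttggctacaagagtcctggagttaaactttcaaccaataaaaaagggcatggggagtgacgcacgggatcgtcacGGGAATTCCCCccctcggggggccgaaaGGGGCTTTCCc
Rel, chr11:23770970-23771099, minus strand: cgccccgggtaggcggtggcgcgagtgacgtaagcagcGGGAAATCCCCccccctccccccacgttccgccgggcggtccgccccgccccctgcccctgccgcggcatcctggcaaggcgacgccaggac
Rela, chr19:5637411-5637540, plus strand: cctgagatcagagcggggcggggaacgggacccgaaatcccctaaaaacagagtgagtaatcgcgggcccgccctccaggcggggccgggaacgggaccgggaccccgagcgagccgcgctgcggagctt

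Of the 9 genes, 6 were in the promoter table, whose windows run from 250 bases before to 50 bases after the start. A match lay in 5 of the 6. It began at position -29 in Nfkbia, at -125 and -12 in Tnfaip3, at -39 and -11 in Nfkb2 and at -92 in Rel, with a further overlapping match 1 base on in both Nfkb2 and Rel. In Bcl3 the match GGGAAGTCCC began at position 3 after the start. Rela had no match in its window, which says only that these letters are not there. Nfkb2 has other start sites in the table, with matches at -236 and 11 for one and at -225 for the other, and the other start of Tnfaip3 had none. For comparison, 8.46% of the 32851 promoters in the table held a match, and 9.55% of the 27025 genes held one in any promoter. A match of letters is a description and not a measured binding site.

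The question of the first comparison is which of these genes responded to the cream across the 5 genotypes. The genes grouped here as inhibitors rose most: Bcl3 2.84-fold (95% interval 2.26 to 3.56), Nfkbiz 2.18-fold (1.84 to 2.59), Nfkbia 1.95-fold (1.65 to 2.30) and Tnfaip3 1.77-fold (1.49 to 2.09), as means over 5 genotypes. The products of Bcl3 and Nfkbiz also act with NF-kB in the nucleus, so the group name does not make all of them brakes. Of the subunits Relb, Rela and Nfkb2 rose by a smaller amount, and Rel and Nfkb1 did not pass the test on the brightest probe. In all 7 of the 9 genes rose and 0 fell, with a median of 0.36 on the log2 scale. Among all 24080 genes tested 10.5% rose and 15.7% fell, with a median of -0.07. A gene counts as having risen or fallen here at a Benjamini-Hochberg adjusted p under 0.05 in limma, fitted on the 10 group means with a block for each genotype, each gene read on its brightest probe. Under scaling to the 75th percentile the same call gave 51.7% of changed genes higher, against 40.1% here, and the count for these genes was again 7.

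**Figure D1:**
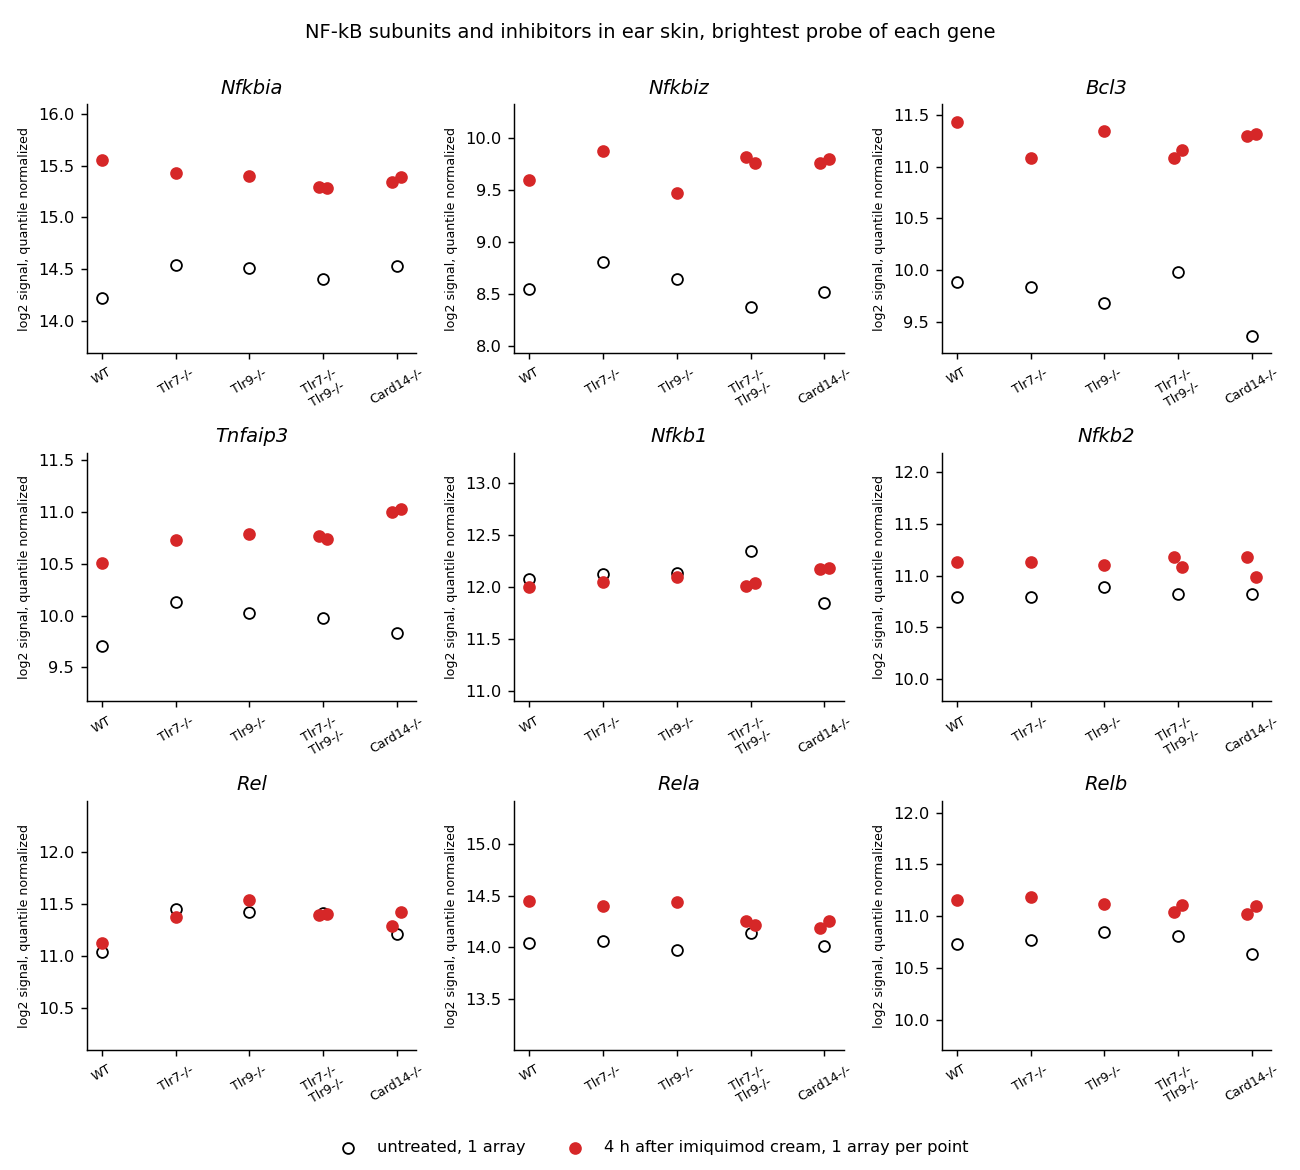
Quantile normalized log2 signal (vertical axis, a span of equal size in every panel) of the brightest probe of each of the 9 genes, by genotype (horizontal axis). Open circles are single untreated arrays and filled circles single arrays 4 h after imiquimod cream. The filled circles of Nfkbia, Nfkbiz, Bcl3 and Tnfaip3 all lie above the open ones, while those of Nfkb1 and Rel overlap them.

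Nfkbia encodes IkB-alpha, which holds NF-kB dimers in the cytoplasm. Its log2 signal in untreated skin was 14.22 in WT, 14.54 in Tlr7-/-, 14.52 in Tlr9-/-, 14.40 in the double knockout and 14.53 in Card14-/-. After imiquimod it was 15.56 in WT, 15.43 in Tlr7-/-, 15.40 in Tlr9-/-, 15.30 and 15.28 in the double knockout, and 15.34 and 15.39 in Card14-/-. All 7 imiquimod arrays thus lay above all 5 untreated ones, and WT had both the lowest untreated and the highest treated value. Among all genes, 8.64% had imiquimod arrays that all lay above the untreated ones. The mean rise was 0.96 ± 0.10 (SE, 5 genotype pairs), with an adjusted p of 0.0070. By genotype it was 1.33 in WT and between 0.83 and 0.89 in the 4 others, of which Card14-/- was the lowest.

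Nfkbiz encodes IkB-zeta, a nuclear co-activator. Untreated values were 8.54 in WT, 8.80 in Tlr7-/-, 8.64 in Tlr9-/-, 8.38 in the double knockout and 8.52 in Card14-/-. After imiquimod they were 9.60, 9.88 and 9.47 in WT, Tlr7-/- and Tlr9-/-, 9.82 and 9.76 in the double knockout, and 9.76 and 9.80 in Card14-/-. Again no imiquimod array overlapped the untreated ones, and every genotype rose. The mean rise was 1.13 ± 0.10 (SE, adjusted p = 0.0062), from 0.84 in Tlr9-/- to 1.41 in the double knockout. A second probe, A_55_P2039086, gave nearly the same mean rise, 1.09, but another order: there the double knockout was lowest at 0.75 and Card14-/- highest at 1.32. The order of the genotypes in Nfkbiz therefore rested on the probe, and only the rise itself was shared by both.

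Bcl3, an IkB-like nuclear partner of NF-kB homodimers, had the largest rise of the 9. Untreated values were 9.89 in WT, 9.84 in Tlr7-/-, 9.68 in Tlr9-/-, 9.98 in the double knockout and 9.37 in Card14-/-, the lowest of the 5. After imiquimod they were 11.43, 11.09 and 11.34 in WT, Tlr7-/- and Tlr9-/-, 11.08 and 11.16 in the double knockout, and 11.30 and 11.31 in Card14-/-. The treated values of Card14-/- thus lay inside the range of the others, while its untreated value lay below it. The mean rise was 1.51 ± 0.13 (SE, adjusted p = 0.0062), from 1.14 in the double knockout to 1.94 in Card14-/-.

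Tnfaip3 encodes A20, a ubiquitin-editing enzyme that shuts off signalling upstream of the IkB kinase. Untreated values were 9.71 in WT, 10.13 in Tlr7-/-, 10.03 in Tlr9-/-, 9.98 in the double knockout and 9.84 in Card14-/-. After imiquimod they were 10.50, 10.73 and 10.79 in WT, Tlr7-/- and Tlr9-/-, 10.77 and 10.74 in the double knockout, and 11.002 and 11.03 in Card14-/-, the highest of the 7. No imiquimod array overlapped the untreated ones. The mean rise was 0.82 ± 0.10 (SE, adjusted p = 0.0089), from 0.60 in Tlr7-/- to 0.79 in WT among the 4 other genotypes and 1.18 in Card14-/-.

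These 4 inhibitor genes passed the test in each of the 14 other ways the average response was computed, with the highest adjusted p at 0.045.

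Relb, Rela and Nfkb2 rose by less. Relb, the subunit of the non-canonical pathway, lay between 10.63 and 10.84 (median 10.77) in the untreated arrays and between 11.03 and 11.18 (median 11.10) after imiquimod, a mean rise of 0.36 ± 0.07 (SE, adjusted p = 0.017). Rela, the main transactivating subunit of the canonical pathway, lay between 13.98 and 14.14 (median 14.05) and then between 14.19 and 14.44 (median 14.26), a rise of 0.30 ± 0.08 (SE, adjusted p = 0.042). In Rela the 3 treated arrays on slide 1 read 14.40 to 14.44 and the 4 on slide 2 read 14.19 to 14.26. There the slide coincides with genotype, and the 2 cannot be told apart. Nfkb2, whose product is a precursor that traps RelB until it is processed, lay between 10.79 and 10.89 (median 10.82) and then between 10.99 and 11.18 (median 11.13), a rise of 0.29 ± 0.06 (SE, adjusted p = 0.023).

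In each of these 3 genes the treated arrays lay above the untreated ones without overlap, but their calls were less firm. Without the Tlr7-/- pair, and likewise without the Tlr9-/- pair, all 3 missed the threshold (adjusted p = 0.059 to 0.14) and only the 4 inhibitor genes were called. Nfkb2 and Rela also missed it without the WT pair and without the double knockout pair, and Rela without the Card14-/- pair. Other probes of Rela and Relb did not rise. The second Rela probe, A_55_P2744639, moved by -0.11 (adjusted p = 0.54 in limma over single probes), and the other Relb probes, A_55_P2168741 and A_55_P2744644, by -0.05 and 0.05 (adjusted p = 0.71 and 0.73). The second Nfkb2 probe, A_51_P454217, rose by 0.44 (adjusted p = 0.017).

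Nfkb1, the precursor gene of the most common DNA-binding subunit, and Rel, the subunit prominent in lymphoid and myeloid cells, were read differently by their probes. The start of each probe is shown so that the probes can be told apart, although this does not tell which transcript each follows. Shown are 30 of 60 bases, 5′ to 3′ along the transcript, with the mm9 position of the whole probe as the files give it.
Nfkb1 A_55_P2745489, chr3:135247898-135247958, minus strand: ggtgcctttctagccatctactgtaagttg
Nfkb1 A_55_P1968743, chr3:135254550-135254609, minus strand: tctatgacctggacgactcttgggagaagg
Nfkb1 A_52_P582969, chr3:135275144-135275203, minus strand: attgctgccaaacttatatgagacttagac
Rel A_55_P2401403, chr11:23637051-23637110, minus strand: tggtgttagctctctaccactaagttgtct
Rel A_55_P2723629, chr11:23641729-23641788, minus strand: ttctcattccgtttgatctcctaaagcctg

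The brightest Nfkb1 probe, A_55_P2745489, read 12.08, 12.12, 12.13, 12.35 and 11.84 in untreated WT, Tlr7-/-, Tlr9-/-, double knockout and Card14-/- skin. After imiquimod it read 11.996, 12.04 and 12.10 in WT, Tlr7-/- and Tlr9-/-, 12.01 and 12.04 in the double knockout, and 12.18 in both arrays of Card14-/-. The groups overlapped, and the mean difference was -0.04 ± 0.10 (SE, adjusted p = 0.82). Taken alone, the double knockout moved by -0.32 (adjusted p = 0.021) and Card14-/- by 0.34 (adjusted p = 0.026), both under the size of 1 required below.

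The probe A_55_P1968743, which the files assign to the RefSeq transcript of Nfkb1, read 8.15, 8.39, 8.41, 8.52 and 8.42 in the untreated arrays in the same order. After imiquimod it read 9.44, 9.11 and 9.24 in WT, Tlr7-/- and Tlr9-/-, 9.13 and 9.07 in the double knockout, and 9.12 and 8.95 in Card14-/-. These groups did not overlap, and the rise was 0.81 ± 0.12 (SE, adjusted p = 0.014 over 37125 probes, of which 10.7% rose and 13.4% fell), seen in 5 of 5 genotypes. The last probe, A_52_P582969, read 7.53 to 7.85 in the untreated arrays, 9.0003 to 9.16 in the 3 treated arrays on slide 1 and 7.56 to 8.09 in the 4 on slide 2. Its mean difference of 0.89 ± 0.29 (SE) did not pass (adjusted p = 0.072), and slide and genotype cannot be told apart there.

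Rel showed the same division. The brightest probe, A_55_P2401403, lay between 11.04 and 11.45 (median 11.42) untreated and between 11.13 and 11.54 (median 11.40) after imiquimod, a difference of 0.05 ± 0.07 (SE, adjusted p = 0.58). The probe A_55_P2723629, assigned to the RefSeq transcript, read 6.71, 6.40, 6.34, 6.33 and 6.33 in untreated WT, Tlr7-/-, Tlr9-/-, double knockout and Card14-/- skin. After imiquimod it read 7.07, 7.10 and 7.43 in WT, Tlr7-/- and Tlr9-/-, 7.33 and 7.17 in the double knockout, and 6.87 and 6.76 in Card14-/-. Here all treated arrays lay above the untreated ones, and the rise was 0.71 ± 0.13 (SE, adjusted p = 0.018), in 5 of 5 genotypes. No source used here says which probe follows the full transcript. The RefSeq assignment does not settle it. Both Rela probes are assigned to the same RefSeq transcript, and only the brightest rose. The Relb probe A_55_P2744644, which did not rise, is assigned to a RefSeq transcript too, and the brightest Rel probe to an Ensembl transcript. With the mean of all probes of a gene in place of the brightest, Nfkb1 (0.55, adjusted p = 0.045) and Rel (0.38, adjusted p = 0.029) passed the test and Rela (0.09) and Relb (0.12) did not, so that the count was again 7 but of other genes.

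**Figure D2:**
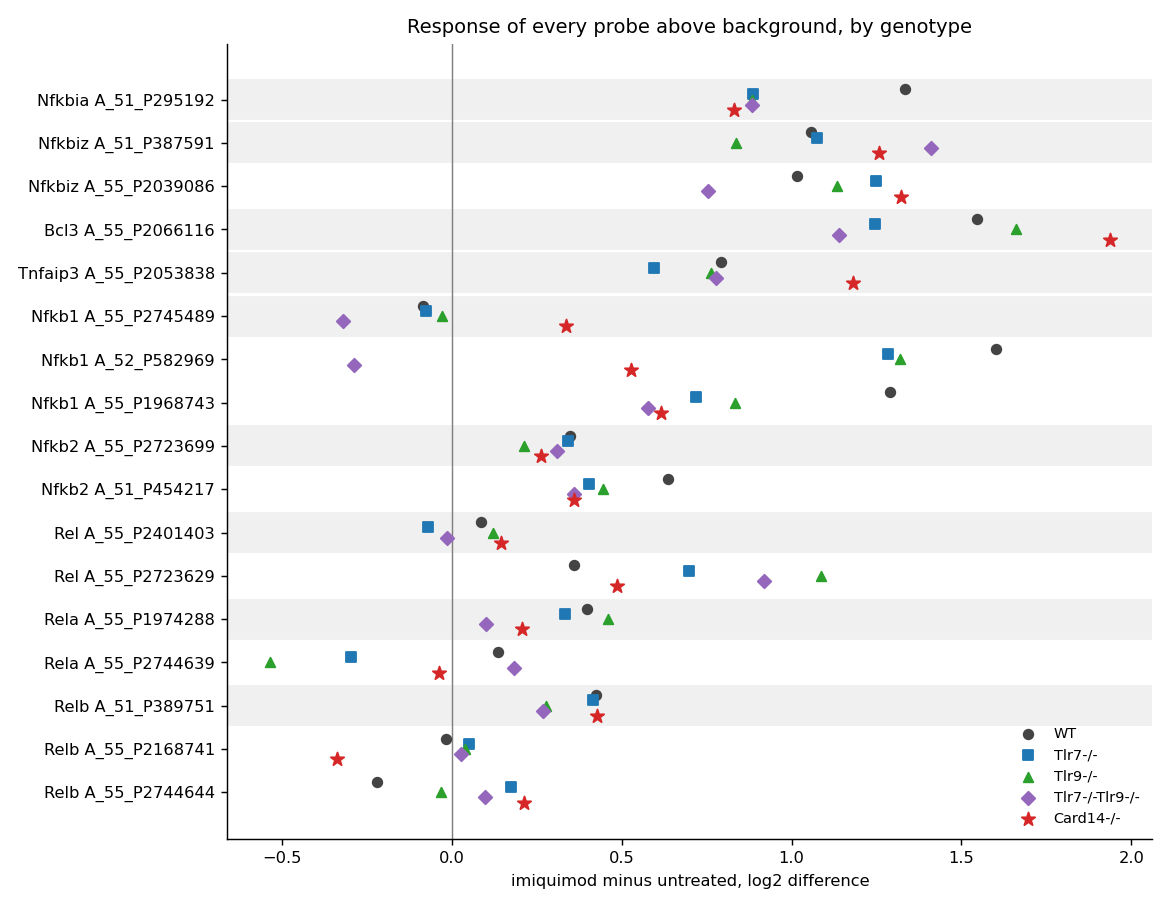
Response, imiquimod minus untreated on the log2 scale (horizontal axis), of each of the 17 probes above background (rows, the brightest probe of a gene on grey), with 1 symbol per genotype. The inhibitor probes lie to the right of 0 in every genotype, whereas probes of Nfkb1, Rel, Rela and Relb differ within a gene.

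Within single genotypes a call also required a log2 difference of at least 1, since the spread comes only from the 2 pairs of repeat arrays. In WT skin Nfkbia, Nfkbiz and Bcl3 met this (3 of 9, against 7.82% of all genes higher). In Tlr7-/- skin Nfkbiz and Bcl3 did (2 of 9, against 3.93%), in Tlr9-/- skin Bcl3 alone (1 of 9, against 5.16%), and in the double knockout Nfkbiz and Bcl3 (2 of 9, against 3.93%). In Card14-/- skin Nfkbiz, Bcl3 and Tnfaip3 met it (3 of 9, against 3.08%). The inhibitor genes that missed it rose by 0.60 to 0.89 and failed on size alone, with adjusted p of 0.0053 to 0.013. All 4 inhibitor genes thus had an adjusted p under 0.05 in limma in each of the 5 genotypes. At that threshold alone 20.3% of all genes were higher in WT, 15.2% in Tlr7-/-, 16.4% in Tlr9-/-, 16.5% in the double knockout and 11.9% in Card14-/-. Without 1 of the 4 repeat arrays the count stayed at 3 in WT. Without either Card14-/- array it was 0 in Tlr7-/-, Tlr9-/- and Card14-/-, without either double knockout array it was 2, 1 and 1 there, and in the double knockout it was 0 without any of the 4.

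The next comparison asks whether the response of Card14-/- skin differed from that of the other 4 genotypes. In limma on the 5 differences, 0 of the 9 genes and 0 of 24080 genes (0%) passed, with 0 of the 9 and 1073 of all genes at an unadjusted p under 0.05. The estimates leaned toward larger responses in Card14-/- for 3 genes: 0.54 for Bcl3 (95% interval -0.15 to 1.24), 0.46 for Nfkb1 (-0.04 to 0.97) and 0.45 for Tnfaip3 (-0.01 to 0.91), each with an adjusted p of 0.85. For Nfkbia it was -0.17 (-0.82 to 0.49) and for Nfkbiz 0.16 (-0.52 to 0.85). For Nfkb2 it was -0.04, for Rel 0.11, for Rela -0.12 and for Relb 0.08. These intervals leave room for a difference of either sign, so equal responses are not shown. Taking the spread from the repeat arrays instead gave adjusted p of 0.027 for Bcl3, 0.027 for Tnfaip3 and 0.024 for Nfkb1, and 5259 genes in all, but that spread leaves out differences between pools of mice.

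**Figure D3:**
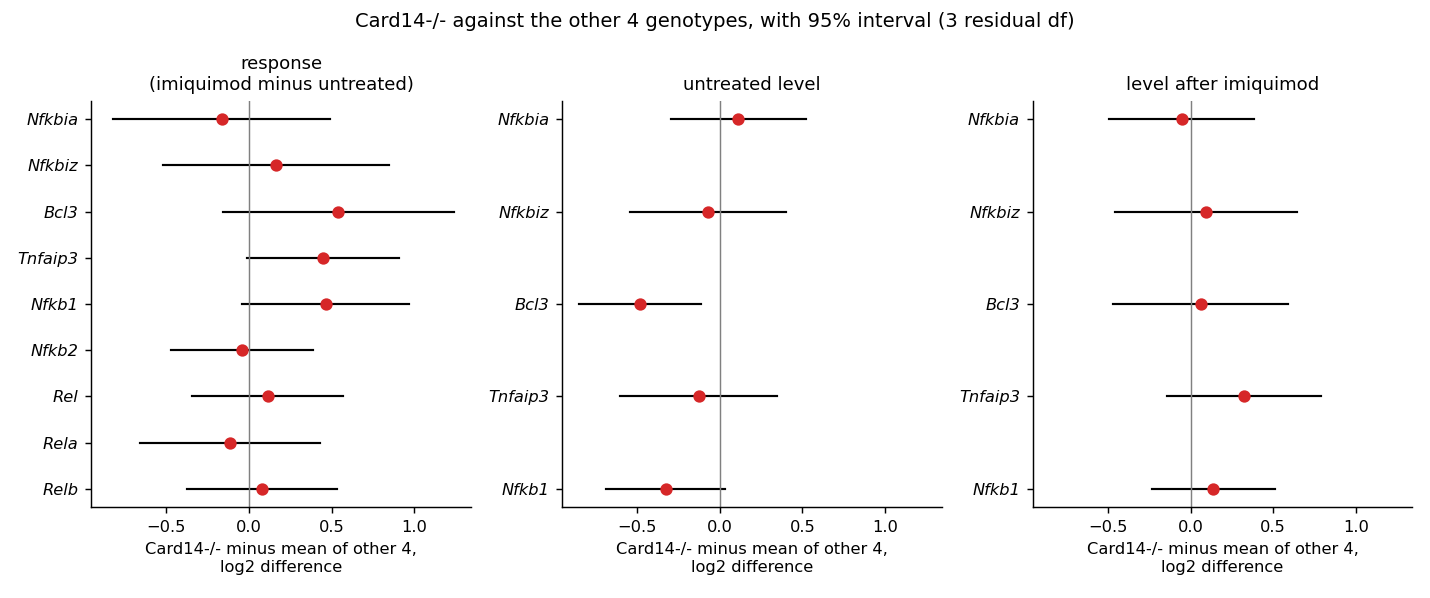
Card14-/- minus the mean of the other 4 genotypes on the log2 scale (horizontal axis), with the 95% interval from limma, for the response of the 9 genes (left) and for the untreated level and the level after imiquimod of 5 of them (middle and right). The intervals of all 9 response differences include 0. That of Bcl3 in untreated skin lies below 0, although its adjusted p of 0.79 in limma did not pass.

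The levels behind these estimates are given for the 4 inhibitor genes and Nfkb1. Untreated Bcl3 was 0.48 lower in Card14-/- than in the other 4 genotypes (95% interval -0.85 to -0.11, adjusted p = 0.79), and after imiquimod the difference was 0.06 (-0.47 to 0.59). For Tnfaip3 the untreated difference was -0.13 (-0.60 to 0.35) and the treated one 0.32 (-0.14 to 0.79). For the brightest Nfkb1 probe the untreated difference was -0.33 and the treated one 0.14. For Nfkbia the differences were 0.11 untreated and -0.05 treated, and for Nfkbiz -0.07 and 0.09. Among the 9 genes 0 passed in untreated skin (0.203% of all genes did) and 0 after imiquimod (0.00415%). At an unadjusted p under 0.05 in limma the counts were 1 and 0, against 5.02% and 2.64% of all genes. Card14-/- has a single untreated array, on which all of these response differences rest.

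Card14-/- had the largest response of the 5 genotypes in Bcl3, Tnfaip3, the brightest probe of Nfkb1 and those of Rel and Relb, and the smallest in Nfkbia, although in Relb it led WT only by 0.43 to 0.42. Over all 24080 genes tested, Card14-/- was the highest of the 5 in 25.1% and the lowest in 20.2%. Over all genes that rose in the average response, which 7 of these 9 genes did, Card14-/- was the lowest of the 5 in 47.9% and the highest in 7.19%, with a median difference from the others of -0.25. On other probes the picture changed: the Nfkb1 probe A_55_P1968743 gave a Card14-/- difference of -0.24, A_52_P582969 one of -0.45, and the Rel probe A_55_P2723629 one of -0.28 (adjusted p = 0.86 to 0.89).

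Against WT alone, the response of Card14-/- skin was lower by 0.50 in Nfkbia (log2 difference -0.50 ± 0.07 SE, adjusted p = 0.026). It was higher by 0.39 ± 0.08 in Bcl3 (adjusted p = 0.048), 0.39 ± 0.07 in Tnfaip3 (0.036) and 0.42 ± 0.06 in Nfkb1 (0.028), and by 0.20 ± 0.08 in Nfkbiz (0.14). None of the 9 reached a log2 difference of 1, so 0 were called, against 10.5% of all genes, although 4 had an adjusted p under 0.05 in limma, as 31.3% of all genes did. Without any 1 of the 4 repeat arrays the count over all genes was 0. The treated WT and Card14-/- arrays lie on different slides, and slide and genotype cannot be told apart in this comparison.

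The double knockout is the closest match, since its 2 treated arrays share slide 2 with those of Card14-/-. The response of Card14-/- exceeded that of the double knockout by 0.80 ± 0.08 (SE) in Bcl3 (adjusted p = 0.068), 0.66 ± 0.06 in Nfkb1 (0.062) and 0.41 ± 0.06 in Tnfaip3 (0.10), and differed by -0.05 ± 0.06 in Nfkbia (0.66) and -0.15 ± 0.07 in Nfkbiz (0.32). Of the 9 genes 0 were called, against 1.05% of all genes, with 3 of the 9 at an unadjusted p under 0.05 in limma against 23.4% of all genes. This comparison and the preceding one share the Card14-/- arrays. Between the treated arrays alone, 2 against 2 on 1 slide, Card14-/- was higher by 0.26 ± 0.04 in Tnfaip3 (adjusted p = 0.065), 0.19 ± 0.04 in Bcl3 (0.12), 0.15 ± 0.03 in Nfkb1 (0.11) and 0.08 ± 0.04 in Nfkbia (0.29), with -0.01 ± 0.04 in Nfkbiz (0.92). Here too 0 of 9 were called, against 1.45% of all genes, and 3 of the 9 had an unadjusted p under 0.05 against 27.7% of all genes. In Tnfaip3, Bcl3, Nfkb1 and Nfkbia both Card14-/- arrays lay above both double knockout arrays, as they did in 26% of all genes.

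Over the 10 group means, the 7 genes that rose followed each other on their brightest probes, with Pearson's r from 0.76 (Tnfaip3 with Rela) to 0.97 (Nfkbia with Nfkb2). For Nfkbia it was 0.95 with Nfkbiz, 0.94 with Bcl3 and 0.92 with Tnfaip3, but 0.21 with Rel and -0.20 with Nfkb1. All these points share the same arrays and the same treatment step, so the values only describe the profile. Among 5049 other genes above background on all arrays that varied by an SD of at least 0.3, the profile most like Nfkbiz was that of Ccl20 (r = 0.986), which encodes a chemokine for CCR6-bearing cells, followed by Tgif2 (0.979). For Bcl3 it was Icam1 (0.990), a leukocyte adhesion molecule, and Cd83 (0.989), a surface protein of mature dendritic cells. For Nfkbia it was Etohd2 (0.989) and Gm10353 (0.988), for Tnfaip3 Baz1a (0.988) and Cep43 (0.978), and for Nfkb2 Galnt6 (0.983) and Ramp3 (0.982). Rela was most like Wdr41 (0.985) and Treml2 (0.983), and Relb most like Cry1 (0.977) and Klrk1 (0.973). For Rel (Rims3, 0.907, and Scgb2b2, 0.874) and Nfkb1 (Cldn9, 0.776, and Dpy19l4, 0.755) the likeness was weaker.

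Other genes of the pathway were read in the same fit. Their counts, and those of the cell type markers after them, stand against 10.5% of all genes that rose and 15.7% that fell. Of 33 NF-kB target genes tested, 18 rose and 1 fell, with a median of 0.64. Ccl20 rose by 4.54 ± 0.25 (SE) and the neutrophil chemokine gene Cxcl1 by 4.02 ± 0.14 on the log2 scale, and Tnfrsf9, a costimulatory receptor gene, by 1.87 ± 0.15. Il6 was above background on 2 of 5 untreated and 7 of 7 imiquimod arrays, and its rise was at least 2.61-fold, set against the lowest signal above background wherever an array was below it. Plau, which encodes urokinase, fell by 0.32, though its other probe moved by 0.14. Of 13 genes listed as targets of IkB-zeta, 4 rose and 0 fell, with a median of 0.27: Ccl20, Cxcl1 and Il6, which are also in the first list, and Lcn2, an antimicrobial iron-binding protein gene, by 1.24 ± 0.13. The other 9 did not pass, among them S100a8 at -0.75, S100a9 at 0.27 and Il36g at -0.52.

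Genes upstream of NF-kB were called about as often as all genes. Of the 4 other IkB genes Nfkbid, which encodes a nuclear IkB, rose by 0.57 ± 0.08. Of 16 genes of the IkB kinase complex and its upstream kinases, 2 rose and 2 fell, with a median of -0.12. The receptor kinase gene Irak2 rose by 0.50 ± 0.08 and Map3k14, the kinase of the non-canonical pathway, by 0.49 ± 0.12. Ripk1 fell by 0.46 and Ikbkg, the regulatory subunit of the kinase complex, by 0.54. The kinase genes Chuk (-0.05) and Ikbkb (0.02) did not pass. Other probes differed in size: those of Irak2 ran from 0.18 to 1.01, those of Map3k14 from 1.09 to 1.62, those of Ikbkg from -0.51 to -0.17 and those of Ripk1 from -0.33 to 0.28.

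Of 14 genes of the CARD14 complex and TRAF adaptors, 4 rose and 0 fell, with a median of 0.14. Among those that rose were Traf1 by 0.41 ± 0.10, the paracaspase gene Malt1 by 0.31 ± 0.08 and Traf2 by 0.29 ± 0.06, although the other Traf2 probe moved by -0.34. Of 20 partners of A20 and other negative regulators, 4 rose and 1 fell, with a median of -0.03. Tnip3, an A20-binding inhibitor, rose most, by 1.40 ± 0.22, with 2.06 in Card14-/- and 1.93 in WT against 0.83 to 1.202 in the 3 Tlr genotypes. Zc3h12a, an RNase of inflammatory mRNAs, rose by 0.35 ± 0.09, N4bp1 by 0.28 ± 0.08 and Birc3 by 0.28 ± 0.06, and Tax1bp1 fell by 0.43, with other probes at -0.41 and -0.062. In none of these lists did a gene pass the test of Card14-/- against the others. The median of that difference was 0.26 over the NF-kB targets, 0.83 over the IkB-zeta targets and 0.03 over all genes tested. In untreated skin it was -0.16, -0.76 and -0.01. By genotype the median response of the IkB-zeta targets was 0.84 in Card14-/- and 0.66 in the double knockout, both treated on slide 2. In WT it was -0.41, in Tlr7-/- -0.48 and in Tlr9-/- 0.25, all treated on slide 1. Slide and genotype cannot be told apart there.

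**Figure D4:**
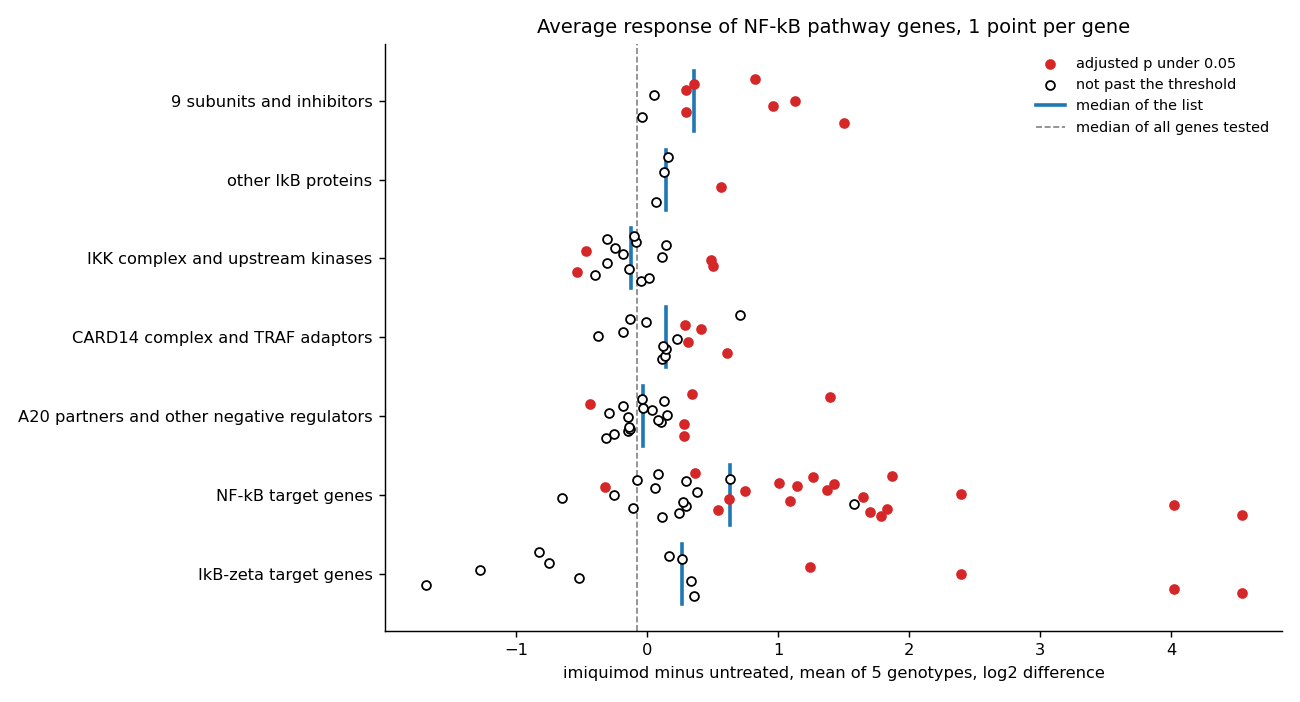
Average response, imiquimod minus untreated over 5 genotypes on the log2 scale (horizontal axis), of the 9 genes and of 6 lists of pathway genes (rows), with 1 point per gene. Filled points passed an adjusted p under 0.05, blue bars are list medians and the dashed line is the median of all genes, -0.07. Genes that rose lie in every row, with the largest rises among the target genes, and genes of the kinase complex lie on both sides of the dashed line.

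Genes that mark the cell types of skin and its infiltrate were also read. Among 10 T cell markers, 7 passed as higher and 1 as lower (Cd2 by 0.86, Cd3e by 0.80, Cd3d by 0.76 and Il7r by 0.73, and Cd5 at -0.998), with a summed level of 14.39 to 14.62 in untreated and 14.52 to 14.90 in imiquimod arrays. Of 8 endothelial markers 5 rose and 1 fell (Cldn5 by 0.81, Esam by 0.69, Emcn by 0.60 and Cdh5 by 0.55, and Tek at -0.38), with a summed level of 12.26 to 12.81 and then 12.86 to 13.70. Of 10 macrophage markers 4 rose and 1 fell (Cd14 by 0.76, Ms4a7 by 0.46, C1qb by 0.46 and Adgre1 by 0.29, and Ccr2 at -0.96), and their summed levels of 14.61 to 15.22 and 14.91 to 15.34 overlapped. Of 7 dendritic and Langerhans cell markers 3 rose (Cd207 by 1.199, Ccr7 by 0.87 and Itgax by 0.39), with a summed level of 15.78 to 16.06 and then 16.03 to 16.54. On its brightest probe Zbtb46 fell at least 1.52-fold (above background on 3 of 7 imiquimod arrays), though its other probe moved by 0.08.

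Of 4 B cell markers 1 rose (Ms4a1 by 2.06), with a summed level of 8.30 to 8.53 and then 8.69 to 9.62. Of 8 neutrophil markers 1 rose (Retnlg, at least 3.38-fold, above background on 0 of 5 untreated and 7 of 7 imiquimod arrays), with a summed level of 14.94 to 15.19 and then 14.83 to 15.83. Of 5 keratinocyte markers Dsg3 rose by 0.61 and Krt1 fell by 0.62, and the summed level was 19.21 to 19.31 and then 19.14 to 19.31. Of 6 fibroblast markers 2 fell (Dcn by 0.33 and Pdgfra by 0.45), with a summed level of 18.24 to 19.55 and then 17.85 to 19.12, and of 6 melanocyte markers 1 fell (Sox10 by 1.24), with 12.06 to 13.20 and then 11.62 to 13.25. So endothelial and B cell levels separated untreated from imiquimod arrays, as the inhibitor genes did, and their part in the rise was not tested. In Card14-/- imiquimod arrays the summed endothelial level, 12.86 to 12.87, was the lowest among the imiquimod arrays, and that of T cells, 14.52 to 14.55, was among the lowest. Their levels of macrophage markers, 14.91 to 14.93, and of dendritic and Langerhans cell markers, 16.03 to 16.05, were also the lowest, and 1 of them had the lowest neutrophil level, 14.83, while that of melanocytes, 13.21 to 13.25, was the highest. The treated double knockout arrays, on the same slide, read 12.90 and 12.91 for endothelial markers and 14.52 in both for T cells. For macrophages they read 14.97 and 14.99, for dendritic and Langerhans cells 16.06 and 16.10, and for neutrophils 14.86 and 14.95. Their melanocyte level was 12.49 and 12.52. Against the treated arrays on slide 1, slide and genotype cannot be told apart. Krt5, Ngp, Ltf, Xcr1, Cd79a and Blk were listed as markers but were not among the genes tested. These levels are log2 of summed signals, and a list's other probes can differ, as those of Ccr7, Zbtb46, Dsg3, Ms4a7 and Adgre1 did.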

How the data were processed

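RNA of ear skin was measured on 12 single-colour Agilent arrays with 60-base probes. The deposited raw files hold spot intensity values from Agilent Feature Extraction 10.7.3.1, per the file headers. The submitters' processing notes give 10.5.1.1 for it, and limma. Background had been subtracted from the processed signal, which was not scaled between arrays. A deposited log2 table, for which the labels name quartile normalization, served only as an alternative; its columns share the maximum 18.8791, as after quantile normalization. Probe coordinates are mm9, per the file headers.

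Here log2 processed signals were quantile normalized with limma 3.58.1 in R 4.3.3 (data.table version 1.17.8). Spots with an outlier flag were left out (235 probes), repeated spots averaged, and probes kept if well above background on at least 2 arrays (37125 probes). Symbols came from RefSeq by accession for 32994 of the 56605 probes, by symbol for 10224 and by synonym for 520, and 12867 kept the name in the file. Each of 24080 genes was read on its brightest probe. limma's lmFit and eBayes gave the average response (4 residual degrees of freedom), Card14-/- against the other 4 genotypes (3), and contrasts of 10 group means (2), two-sided, with Benjamini-Hochberg adjustment over all genes. Groups with 1 array are assumed to vary like the repeat arrays. For some of these comparisons the limma fits were tested on simulated arrays with known changes.

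The genes, lists and tests were chosen with earlier results of these data known. In each list the up to 4 largest rises and 2 lowest falls past the threshold were named, and for each member the 2 most alike genes. A result that this rule would name is not reported here. S100a8, S100a9, Il36g, Chuk and Ikbkb were named after their values were seen. Alternatives covered 75th percentile scaling, normexp background correction with offset 50, the deposited table, filters on dim probes, the mean of all probes, slide blocks, left-out arrays or genotypes and the replicate number as a block, and testing each probe alone, added after seeing the data. The number of arrays limits the precision. Python 3.11.15 with pandas 2.3.3 and numpy 2.4.6 read the files, and matplotlib 3.10.9 drew the plots.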

Additional observations from a re-analysis of the deposited data

Results flagged for a closer look

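On the brightest Nfkb1 probe, A_55_P2745489, the response of Card14-/- skin was 0.34 on the log2 scale and positive in both of its arrays, while that of the 4 other genotypes was negative in every array, from -0.32 in the double knockout to -0.03 in Tlr9-/-. The difference of 0.46 did not pass the test (adjusted p = 0.85 in limma), and the other Nfkb1 probes did not show it: with Card14-/- at 0.61 on A_55_P1968743 and 0.53 on A_52_P582969, WT was at 1.29 and 1.60. Both Card14-/- arrays were set against the same single untreated array, which read 11.84, the lowest of the 5 untreated arrays. In the deposited table the responses of WT, Tlr7-/- and Tlr9-/- were slightly positive, at 0.015, 0.045 and 0.00094.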

How the results depend on the processing

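The rises of Nfkbia, Nfkbiz, Bcl3 and Tnfaip3 kept their call in all 14 alternatives of the average response. Rela lost it in 7, Nfkb2 in 5 and Relb in 4, and the count of genes called, 7 in all, ran from 4 (without the Tlr7-/- or the Tlr9-/- pair) to 6 when 1 genotype was left out. The count for Card14-/- against the others went from 0 to 3 with the spread of repeat arrays. Without 1 repeat array the count ran from 0 to 2 in Tlr7-/-, 0 to 1 in Tlr9-/-, 0 to 0 in the double knockout (2 with all arrays) and 0 to 1 in Card14-/- (3 with all arrays). The replicate block left 0 of the 9 genes called between the treated Card14-/- and double knockout arrays, as without it, and took all genes from 349 to 99. The correlation between same-numbered arrays was 0.058, and with 2 pairs it cannot decide whether the numbers mark a shared step.

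Several small differences changed sign. In the average response Nfkb1 was 0.55 with the mean of all probes, -0.13 to 0.036 with 1 genotype left out, and 0.89 and 0.81 on its other probes, while Rela was -0.11 and Relb -0.048 on another probe. For Card14-/- against the others, Nfkb2 was 0.0045 with 75th percentile scaling, 0.056 with normexp, 0.080 in the deposited table and -0.14 to 0.053 without 1 Card14-/- array. The mean of probes gave -0.076 for Nfkb1, -0.082 for Rel and -0.026 for Relb, the slide block -0.15 for Nfkbiz and 0.11 for Rela, and other probes -0.45 and -0.24 for Nfkb1, -0.28 for Rel, 0.093 for Rela and -0.36 for Relb. In untreated skin Nfkbiz ran from -0.14 to 0.00047 with 1 genotype left out. In treated skin Nfkbia was 0.088 with 75th percentile scaling and Nfkb1 -0.23 with the mean of probes.

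Within genotypes Nfkb1 in the deposited table was 0.015 in WT, 0.045 in Tlr7-/- and 0.00094 in Tlr9-/-, with normexp 0.018 in Tlr7-/-, and with the mean of probes 0.94, 0.64 and 0.71. The mean of probes gave Rel 0.31 in Tlr7-/- and 0.45 in the double knockout, and Rela -0.039 in Tlr9-/-. Rel in the double knockout was 0.020 with normexp and 0.017 in the deposited table. Against WT, Nfkb1 in Card14-/- was -0.44 with the mean of probes, and against the double knockout Nfkbiz was 0.21. Between treated arrays of these 2 genotypes Nfkbia was -0.0031 with 75th percentile scaling, and Nfkbiz was 0.069 with the mean of probes and -0.036 to 0.021 without 1 array. The causes were not tested. Over all genes, the average response called 11948 with a slide block and 9529 on all 12 arrays against 6315, but 1359 when Tlr9-/- was left out, 2652 for Tlr7-/-, 3237 for WT and 3440 for the double knockout, so that the all-gene shares set beside the counts move too. Card14-/- against the others gave 184 genes with no filter on dim probes against 0. In single genotypes the count over all genes also fell without a repeat array, to 0 in Tlr9-/-, the double knockout and Card14-/- and 193 in Tlr7-/- without either Card14-/- array, with WT at 3187. The number of arrays, and a single untreated array per genotype, limit what could be seen.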
